A study of Saccharomyces cerevisiae with 42 samples.

Results

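The mitochondrial ribosome of the yeast Saccharomyces cerevisiae is described here through 66 nuclear genes for its proteins, of 5656 genes measured. The members were chosen by name: every gene symbol made of MRPL, MRPS, MRP or RSM and a number, with 1 probe set a gene (the one with the highest mean over all arrays). MRP8, the only other of the 67 symbols of that form, was left out because it is not a ribosomal protein. The members divide into 38 proteins of the large subunit and 28 of the small subunit. The rule uses names alone.

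The mitochondrial ribosome translates the few mRNAs of the mitochondrial genome, nearly all of which encode membrane subunits of the respiratory chain and of the ATP synthase. In yeast all but one of its proteins, Var1, are encoded in the nucleus, made in the cytosol and imported. Its large subunit forms peptide bonds, its small subunit reads the mRNA, and proteins descended from bacterial ribosomes are joined in both subunits by proteins that arose in mitochondria. The RNA-binding protein Puf3 is known to bind many mRNAs of these proteins and to lower their stability during growth on glucose.

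Total RNA was measured on 42 single-colour Affymetrix arrays, 2 for each combination of 3 strains and 7 times: before heat stress and 5, 10, 15, 20, 25 and 30 min into heat stress at 39 C. The medium was YPD, which is rich in glucose, and cells were growing in log phase. The strains were the parental JK939a, labelled MAT α with leu2-3 112 and ura3-52, and with rme1, trp1 and his4 beside HMLa; a strain with dpl1:KanMX added to that genotype; and a strain with lcb4::KanMX and lcb5::KanMX added to it. LCB4 and LCB5 encode sphingoid base kinases, and the lyase encoded by DPL1 cleaves the phosphates they make. The parental genotype lists no KanMX, so the marker and the deletions cannot be told apart. The labels do not say whether replicates came from separate cultures, so p-values measure the spread between these arrays, which may be technical. They also do not give the number of clones behind each deletion.

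The deleted genes were at the bottom of the signal range in the strains labelled as lacking them. DPL1 lay between 2.58 and 3.63 (log2 signal) on the arrays of its deletion strain and at 8.64 or above on all others. LCB4 and LCB5 lay at 3.68 or below in the double deletion and at 4.49 or above elsewhere. Replicate arrays correlated at 0.942 to 0.980 over genes. A probe set with no gene symbol, which read at least 11.8 on all arrays of both deletion strains and at most 4.27 on 13 parental arrays, read 8.15 on the first parental array before heat, so the main parental counts and medians are also given without that array.

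All levels and differences below are on the log2 scale of the deposited signals, where a difference of 1 is a factor of 2. The level of a probe set depends on its probes as well as on its mRNA, so the order of levels describes the probe sets. Mean levels over the 42 arrays ran from 3.85 for RSM23 to 9.50 for RSM7, the small-subunit protein related to bacterial S7, with a median of 7.24. RSM7 was followed by MRPS12 at 8.96, the relative of the bacterial S12 of the decoding site, and by MRPL39 at 8.77. The lowest after RSM23 were MRP35 at 3.94 and RSM22 at 4.37. In all, 54 members lay above the median gene, at 6.47.

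During heat the mRNAs of the mitochondrial ribosome moved little and mostly downward on the deposited scale. Averaged over the 6 heat times and the 3 strains, 26 of the 66 members fell and 1 rose (limma, adjusted p under 0.05), against 35.4% of all genes that fell and 30.7% that rose. The members' share of falls, 39.4%, was near that of all genes, and their share of rises was far below it. Their median difference was −0.25, against −0.04 for the median gene, and 56 of 66 members lay below the median gene. Leaving out 1 array gave medians from −0.35 to −0.15, the latter without the second array before heat of the LCB4 LCB5 double deletion, and 19 to 33 falls. With the replicate number as a block, 33 members fell and 2 rose. The shares of all genes with the block are not given. No member changed by a factor of 2 in this mean, while 1515 genes (26.8%) did, and the median size of a member's difference was 0.26 against 0.51 over all genes.

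These directions are relative to the other genes on the array, because the authors' normalisation gave all arrays nearly the same distribution. When each array was instead centred on its bacterial hybridisation controls, the median gene shifted from −0.04 to 0.21, the members' median moved to −0.01 and 0 members were called in the mean response (limma, 1 lower at an unadjusted p under 0.05). In these bulk samples, fewer cells carrying an mRNA and less mRNA per cell cannot be told apart. The distance of the members' median from the median gene, −0.22, is the same on both scales by construction. It was −0.32 after cyclic loess. Each "fell" and "rose" below is therefore a statement on the deposited scale.

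**Figure D1:**
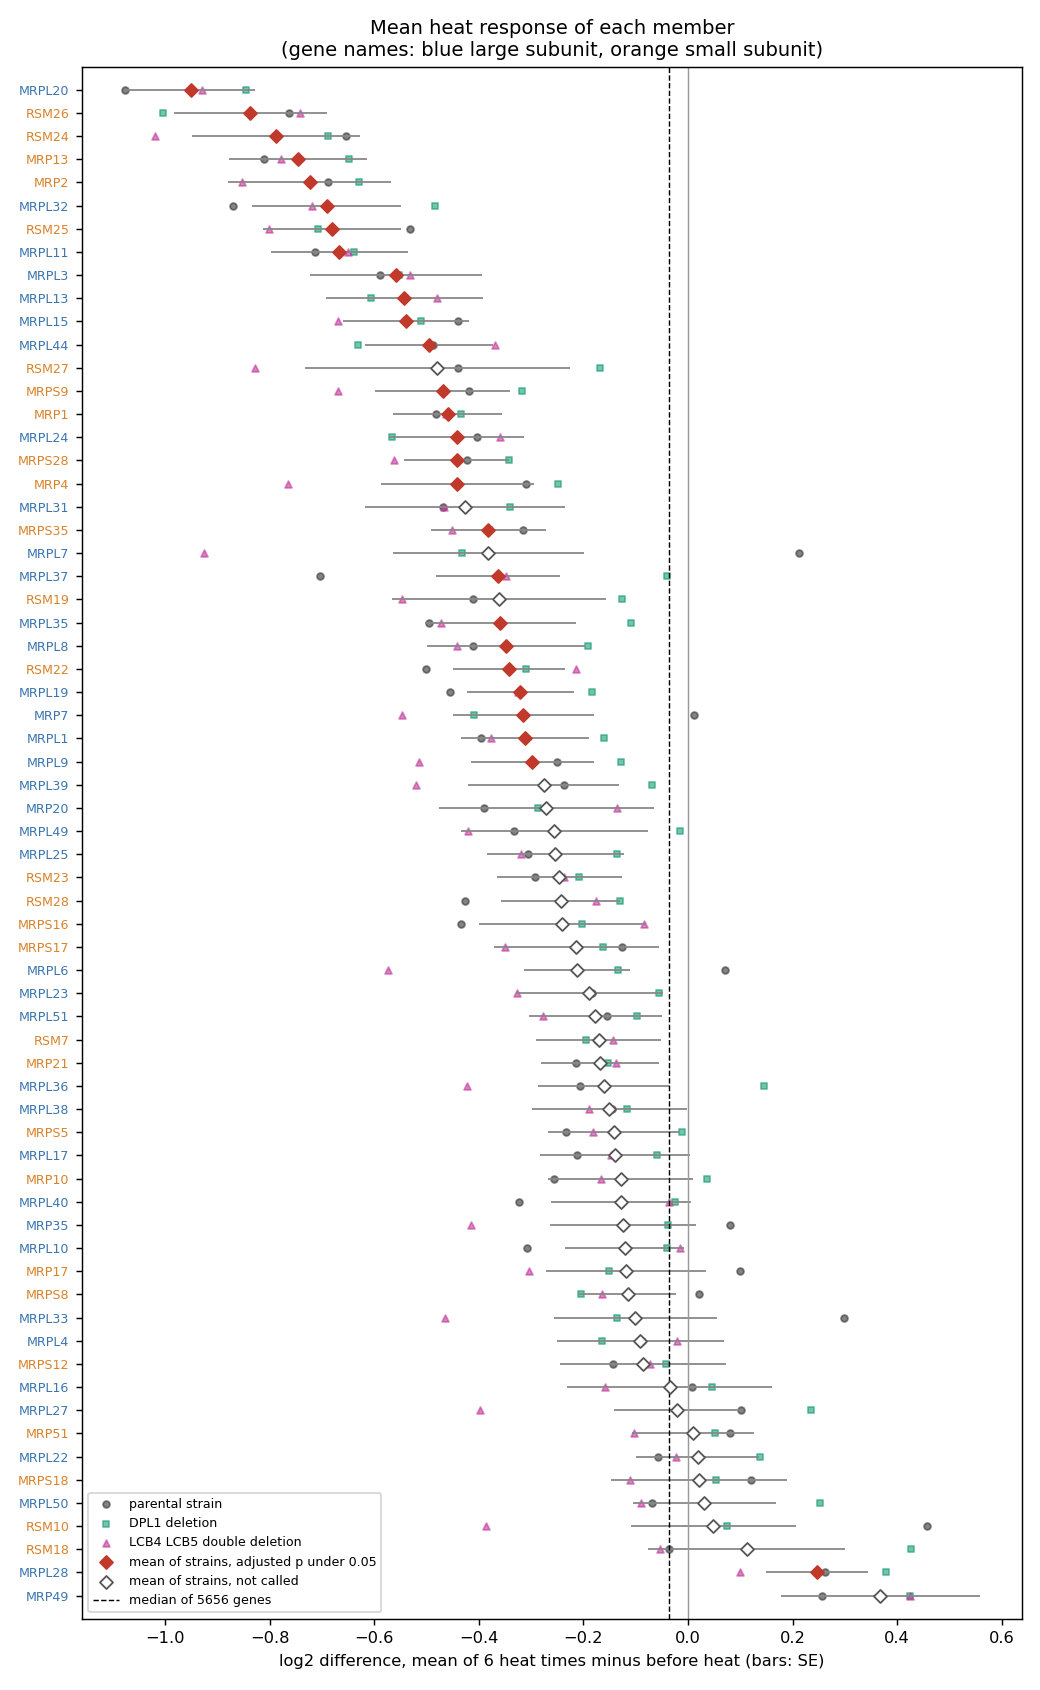
Mean heat response of each of the 66 members, as the log2 difference between the mean of the 6 heat times and the time before heat. Bars are the limma standard error of this difference, from the spread between replicate arrays and not between strains. Small symbols are the single strains, filled diamonds are the 27 members called, and the dashed line is the median gene at −0.04. Members run from −0.95 for MRPL20 to 0.37 for MRP49 on the deposited scale. After centring on hybridisation controls no member was called, against 790 genes lower and 1260 higher.

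The plot of the mean response of each member shows a continuous spread rather than separate sets, with the called members gathered at the lower end. Differences for the 66 ran from −0.95 to 0.37, and 47 members were below 0 in all 3 strains while 2, MRP49 and MRPL28, were above 0 in all 3. Of the 26 that fell, 25 were below 0 in every strain. The exception was MRP7, the relative of bacterial L27, with 0.01 in the parental strain. All 27 members called had the same sign in replicate 1 alone and in replicate 2 alone. The calls were made on the mean of these same strains and replicates, so neither agreement in sign is independent support.

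Large-subunit members that fell were led by MRPL20, a protein with no bacterial counterpart on the list used. Before heat, its signal was 8.30 and 8.67 in the parental strain, 8.22 and 8.35 in the DPL1 deletion, and 8.14 and 8.61 in the double deletion. On the 12 heated arrays its lowest, median and highest values were 6.71, 7.43 and 8.39 in the parental strain, 7.05, 7.50 and 7.87 in the DPL1 deletion, and 7.00, 7.35 and 8.12 in the double deletion. Every heated array of both deletion strains was thus below both of its arrays before heat, and in the parental strain 1 array at 5 min reached into the range before heat. The mean difference was −0.95 ± 0.12 (SE, adjusted p = 1.45e-07), and MRPL20 was the member with the lowest value of the 66.

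MRPL32, the relative of bacterial L32 whose precursor is cut by the m-AAA protease before it joins the ribosome, also fell. It read 7.14 and 7.94 in the parental strain before heat and between 6.24 and 7.25 with heat, median 6.63. In the DPL1 deletion it went from 7.10 and 7.29 to between 6.09 and 7.08, median 6.75, and in the double deletion from 7.32 and 8.07 to between 6.60 and 7.54, median 6.90. The ranges overlapped in the parental strain and the double deletion and were apart in the DPL1 deletion. Its mean difference was −0.69 ± 0.14 (SE, adjusted p = 0.000132).

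MRPL11, the relative of the stalk-base protein L10 of bacteria, read 7.21 and 7.64 before heat and between 6.37 and 7.25 with heat in the parental strain. It read 7.10 and 7.55 before heat in the DPL1 deletion, then between 6.38 and 7.05, and 7.51 and 7.76 in the double deletion, then between 6.46 and 7.47. Heated and unheated arrays were apart in both deletion strains, and the ranges met at their edge in the parental strain. The mean difference was −0.67 ± 0.13 (SE, adjusted p = 7.33e-05).

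MRPL15, a large-subunit protein related to ribonuclease III enzymes, was the only member whose heated arrays lay below both arrays before heat in all 3 strains. Before heat it read 7.44 and 7.30 in the parental strain, 7.50 and 7.53 in the DPL1 deletion, and 7.79 and 7.88 in the double deletion. With heat the lowest, median and highest values were 6.55, 6.95 and 7.27, then 6.72, 6.97 and 7.36, and 6.71, 7.17 and 7.58, in the same order of strains. That separation held for 598 genes, 10.6% of all. The mean difference was −0.54 ± 0.12 (SE, adjusted p = 0.000338). Its probe set is of the kind whose probes may also match other transcripts.

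Further large-subunit falls were MRPL3 at −0.56 ± 0.17 (SE, adjusted p = 0.0045), MRPL13 at −0.54 ± 0.15 and MRPL44 at −0.50 ± 0.12. In all, 15 of 38 large-subunit members fell and 1 rose, with a median of −0.26.

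Of the small-subunit members 11 of 28 fell and 0 rose, with a median of −0.24 (limma). Their differences ran from −0.84 to 0.11, and those of the large subunit from −0.95 to 0.37. RSM26, a protein similar in sequence to manganese superoxide dismutases, read 7.60 and 7.92 in the parental strain before heat, 8.65 and 7.60 in the DPL1 deletion, and 7.81 and 8.22 in the double deletion. Heated arrays had a median of 6.98 in the parental strain (6.53 to 7.70), 7.08 in the DPL1 deletion (6.84 to 7.53) and 7.29 in the double deletion (6.92 to 7.74). Heated and unheated arrays were apart in both deletion strains, and the replicates before heat in the DPL1 deletion differed by more than the fall in any strain. The mean difference was −0.84 ± 0.15 (SE, adjusted p = 1.77e-05).

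MRP13 read 6.94 and 7.63 in the parental strain before heat, 7.28 and 7.10 in the DPL1 deletion, and 7.22 and 7.91 in the double deletion. With heat its median was 6.35 (6.20 to 6.99), 6.54 (6.05 to 6.96) and 6.83 (6.39 to 7.14) in the same order. The groups were apart in both deletion strains and met at 1 edge in the parental strain. The difference was −0.75 ± 0.13 (SE, adjusted p = 1.81e-05).

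RSM24 fell by 0.79 ± 0.16 (SE, adjusted p = 0.000117) and RSM25 by 0.68 ± 0.13 (SE, adjusted p = 6.32e-05). For both, heated and unheated arrays were apart in the deletion strains and overlapped in the parental strain. MRP2, the relative of bacterial S14, fell by 0.72 ± 0.16 (SE, adjusted p = 0.000219). MRPS28, the relative of bacterial S15, fell by 0.44 ± 0.10 (SE, adjusted p = 0.000402).

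**Figure D2:**
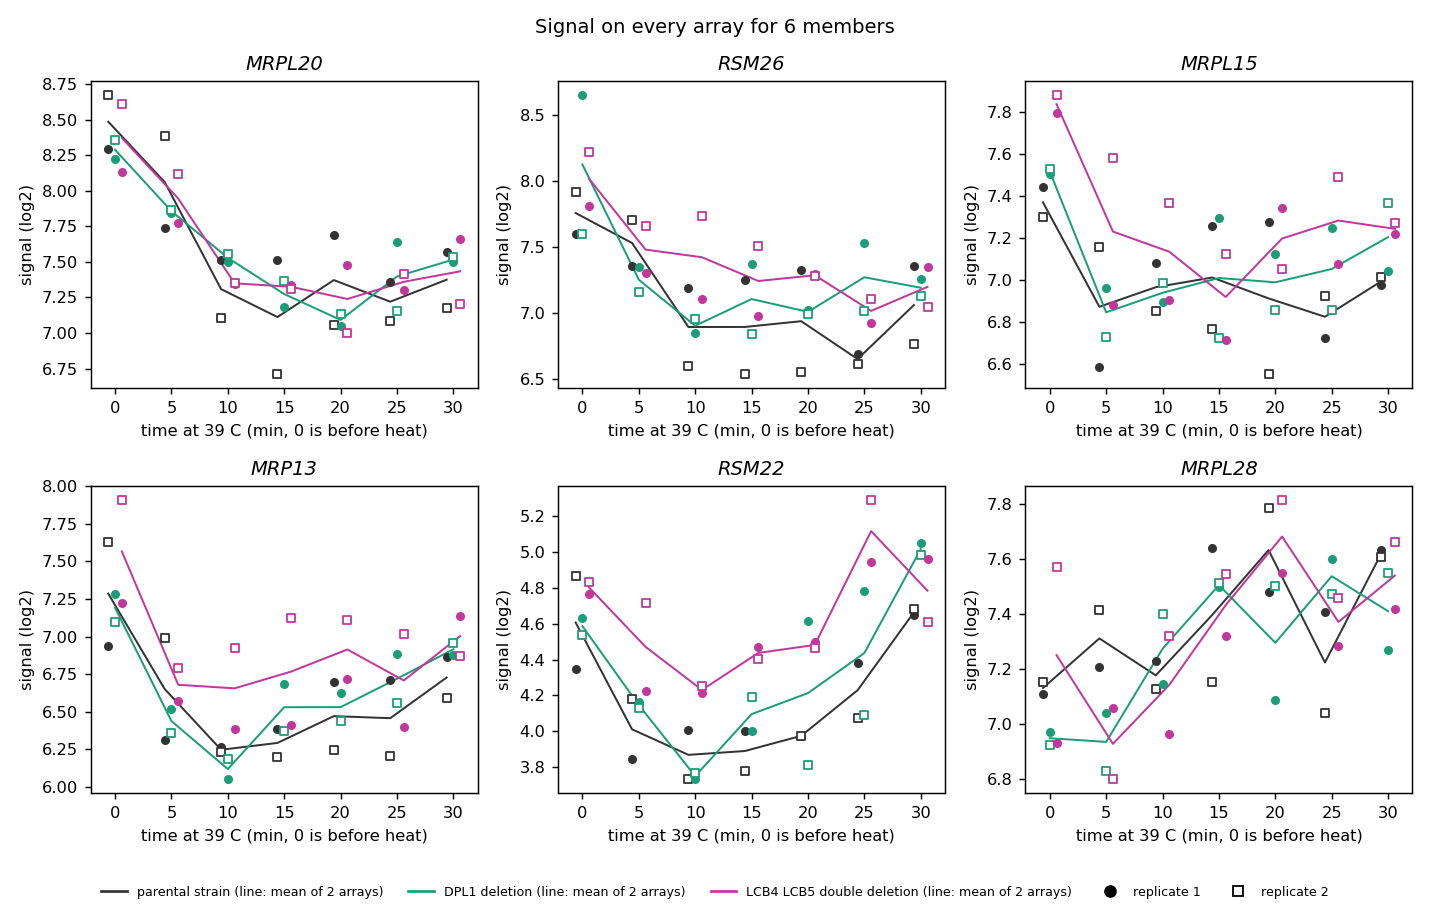
Log2 signal of 6 members on every array against time at 39 C, with time 0 before heat; filled circles are replicate 1, open squares replicate 2, and lines join the means of 2 arrays in each strain. MRPL20, RSM26, MRPL15 and MRP13 lay lower on heated arrays on the deposited scale, RSM22 had its lowest means at 10 min and returned by 30 min, and MRPL28 lay higher from 15 min in the mean of strains.

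The plot of single arrays shows that replicates of one group could differ by 0.5 or more, as for MRPL20 in the parental strain at 15 min. MRPL28, a large-subunit protein with no bacterial counterpart on the list used, was the only member that rose in the mean response without a block. It read 7.11 and 7.15 in the parental strain before heat, then between 7.04 and 7.79 with a median of 7.41. The DPL1 deletion went from 6.97 and 6.92 to between 6.83 and 7.60, and the double deletion from 6.93 and 7.57 to between 6.80 and 7.82. Heated and unheated arrays overlapped in all 3 strains. The rise was 0.25 ± 0.10 (SE, adjusted p = 0.0287), and its call was lost after cyclic loess (adjusted p = 0.0851) and without either array before heat of the DPL1 deletion or the parental strain or the first one of the double deletion, with adjusted p between 0.0523 and 0.247. MRP49, also of the large subunit, had a higher value, 0.37 ± 0.19, but did not pass (adjusted p = 0.0901). With the replicate number as a block, 2 members rose in the mean response.

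The brightest members had small differences. The mean differences of RSM7, MRPS12 and MRPL39 were −0.17 ± 0.12, −0.09 ± 0.16 and −0.28 ± 0.14 (SE), none of which passed. Across the 66 genes the level and the mean difference had a Pearson correlation of 0.03 and a Spearman correlation of 0.07, as a description over genes that share all arrays. Of the 38 members with a bacterial counterpart on the list used, 12 fell, with a median of −0.21. Of the 28 without one, 14 fell and 1 rose, with a median of −0.36. The difference between those medians was not tested.

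All times were compared with the same arrays before heat, so the 6 comparisons are not independent. At 5 min 11 members fell and 0 rose (limma, 14 in either direction at an unadjusted p under 0.05), against 19.7% and 14.6% of all genes, and the median was −0.24. At 10 min 29 members fell and 0 rose (limma, 32 at an unadjusted p under 0.05), against 32.2% and 24.7% of all genes, and the median reached −0.40, its lowest value. At 15 min 20 fell and 2 rose, against 33.2% and 29.6% of all genes, with a median of −0.25. At 20 min 20 fell and 1 rose, against 32.9% and 30% of all genes, with a median of −0.21. At 25 min 22 fell and 1 rose, against 32.2% and 28.4% of all genes, with a median of −0.29. At 30 min 13 fell and 1 rose, against 29.1% and 27% of all genes, with a median of −0.16. The members' share of falls was above that of all genes at 10 and 25 min and below it at the other times, and the difference in shares was not tested.

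The medians moved with single arrays. Without the second double-deletion array before heat the values at 5, 20 and 30 min were −0.16, −0.12 and −0.07. Without the second parental array before heat they were −0.12 at 20 min and −0.10 at 30 min, and without the first double-deletion array before heat the median at 30 min was −0.25. At 5 min the median was −0.14 without the first parental array and −0.16 without the first double-deletion array of that time, and at 30 min it was −0.09 without the first array of the DPL1 deletion. At 15 min it was −0.13 in replicate 1 alone and −0.40 in replicate 2 alone, and at 30 min −0.09 in replicate 1 alone.

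The count at 5 min depended on single arrays, with 5 to 14 members lower when 1 array was left out. It was 5 without the second parental or second double-deletion array before heat or the first parental array at 5 min. It was 6 without the first double-deletion array at 5 min, and 7 without the first array before heat or the second at 5 min of the DPL1 deletion. With the replicate number of each strain as a block it was 17. After centring on hybridisation controls, 1 member was lower at 15 min and 0 at each other time, and the members' medians at 5, 20 and 30 min lay above 0, at 0.17, 0.16 and 0.31.

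**Figure D3:**
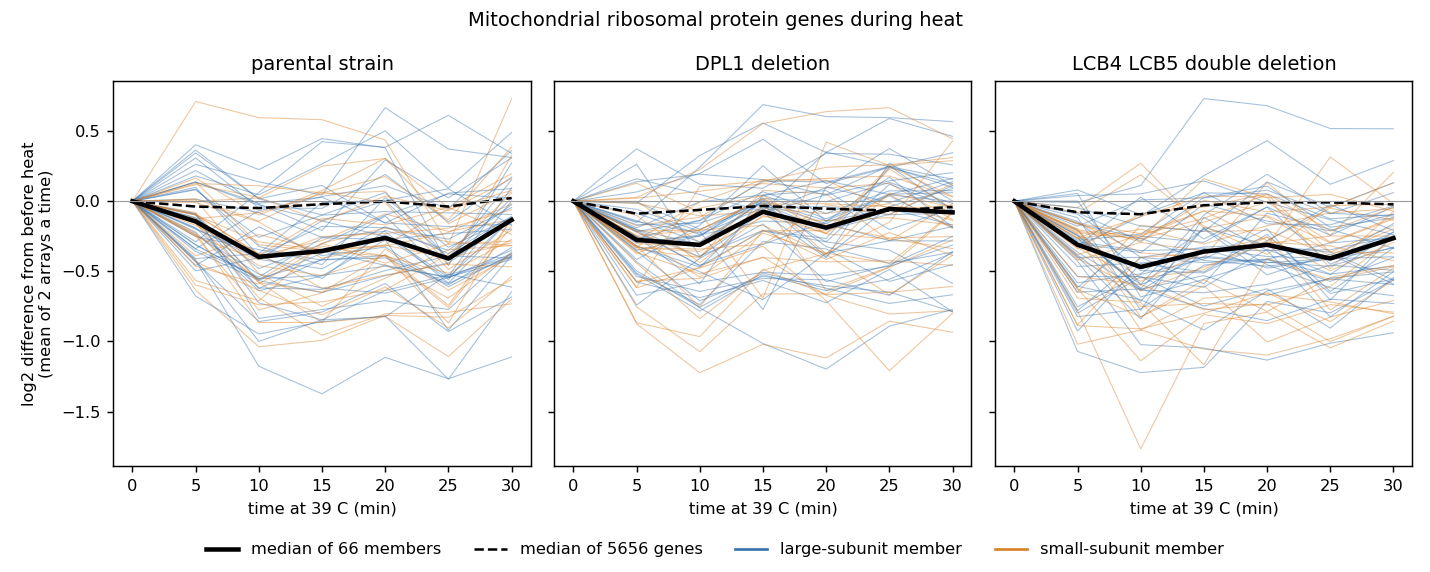
Log2 difference from the time before heat for the 66 members in each strain, in blue for the large and orange for the small subunit, against time at 39 C; the solid black line is the members' median and the dashed line the median of 5656 genes. The members' median reached −0.40, −0.31 and −0.47 at 10 min in the parental strain, the DPL1 deletion and the double deletion on the deposited scale; after centring on hybridisation controls the medians at several times lay above 0.

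The time courses of single members fan out by 5 to 10 min, and their medians varied afterwards. In the DPL1 deletion the median went from −0.31 at 10 min to −0.08, −0.19 and −0.06 at the 3 times that followed. The parental median was −0.41 at 25 min and −0.13 at 30 min. Members reached their lowest mean of strains at 10 min in 24 cases, at 25 min in 18 and at 5 min in 12. The 8 members that were called lower at all 6 times were MRP13, MRPL11, MRPL15, MRPL20, MRPL32, RSM24, RSM25 and RSM26. A further 24 were lower at 1 to 5 times, 2 (MRP49 and MRPL28) were higher at 1 or more times, and 32 were called at no time. Of the 29 lower at 10 min, 13 were also lower at 30 min and 16 were not, and no member was lower at 30 min without being so at 10 min. Passing at one time and not at another does not show that the times differ. The shares of all genes for these counts over several times are not given, so the counts describe the members alone.

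MRPL20 had its lowest mean of strains at 20 min. Its difference was −0.43 ± 0.16 at 5 min, −0.99 ± 0.16 at 10 min and −1.15 ± 0.16 at 20 min, and still −0.94 ± 0.16 (SE, adjusted p = 1.6e-05) at 30 min. MRP13 was at −0.76 ± 0.17 by 5 min and −1.01 ± 0.17 at 10 min, and at −0.47 ± 0.17 (SE, adjusted p = 0.023) at 30 min. MRP49 was higher at 15 min, by 0.61 ± 0.25 (SE, adjusted p = 0.034), and at 25 min. MRPL28 was higher at 15, 20 and 30 min, by 0.33 ± 0.13, 0.43 ± 0.13 and 0.41 ± 0.13.

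The later part of the course was compared directly, 30 min against 15 min, without the arrays before heat. Only RSM22 differed, against 10.7% of all genes that were higher and 3.77% that were lower at 30 min (limma, 2 members at an unadjusted p under 0.05). With the replicate number as a block, 2 members were higher and 0 lower. RSM22 is a methyltransferase-like protein counted with the small subunit. Before heat it read 4.35 and 4.87 in the parental strain, 4.63 and 4.54 in the DPL1 deletion, and 4.77 and 4.84 in the double deletion. Its difference was −0.46 ± 0.14 at 5 min, then −0.72 ± 0.14 at 10 min. It was −0.07 ± 0.14 by 25 min and 0.16 ± 0.14 by 30 min. From 15 to 30 min it rose by 0.68 ± 0.14 (SE, adjusted p = 0.0018), with single-array omissions giving 0.62 to 0.74. The rise was 1.24 with an adjusted p of 0.0556 after centring on hybridisation controls, and RSM22 was among the genes removed by leaving out the dimmest 25%.

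Within single strains, where 2 arrays before heat carry each comparison, fewer members passed. In the parental strain 11 fell and 0 rose in the mean of the heat times (limma, 18 at an unadjusted p under 0.05), against 24.5% of all genes that fell and 21.8% that rose, with a median of −0.31. In the DPL1 deletion 9 fell and 0 rose (limma, 13 at an unadjusted p under 0.05), against 26.6% and 20.6% of all genes, with a median of −0.16. In the double deletion 16 fell and 0 rose (limma, 19 at an unadjusted p under 0.05), against 25.2% and 19.1% of all genes, with a median of −0.37. With the replicate number as a block the falls numbered 19, 14 and 25, and the matching shares of all genes are not given. The 4 members called in all 3 strains were MRP13, MRPL11, MRPL20 and RSM26, and 45 were called lower in none. The shares of all genes for these 2 counts are not given, so neither can be called high or low.

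These counts rest on the arrays before heat. The parental count was 7 without the first and 2 without the second array before heat, with medians of −0.48 and −0.13, and the count in the DPL1 deletion was 3 without either. In the double deletion it was 0 without the second array before heat (limma, 2 lower at an unadjusted p under 0.05), where the median was −0.12, and the median was −0.61 without the first. The median in the DPL1 deletion was −0.26 without its first array before heat. Without the first parental array before heat MRPL20, MRP13, MRPL32 and MRPL11 kept their parental calls, at −1.27, −1.15, −1.27 and −0.93, and MRPL37 lost its own, at −0.57 (adjusted p = 0.118). The median member read 7.25 and 7.64 on the parental arrays before heat, 7.29 and 7.46 in the DPL1 deletion, and 7.48 and 7.91 in the double deletion. In each strain the second replicate was the higher one.

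The joint F test over the 6 times asks whether a gene differed from before heat at any of them. Without a replicate block it called few members. It called MRP1, MRPL20 and RSM22 in the parental strain, MRPL20 and RSM22 in the DPL1 deletion, and MRPL20, MRPS28 and RSM24 in the double deletion. Over all genes it called 38.8%, 38.6% and 39%. The parental count was also 3 without the first parental array before heat. With the replicate number as a block the members called were 13, 6 and 9, and the matching shares of all genes are not given. Complete separation of heated from unheated arrays was seen below for 3 members in the parental strain (MRPL10, MRPL15 and MRPL37), 13 in the DPL1 deletion and 11 in the double deletion. The corresponding shares of all genes were 15.8%, 21.7% and 18.7%.

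No strain difference in the heat response passed the test for any member. The joint tests of the strain differences in response called 0 members in each of the 3 pairs of strains (limma, at most 1 member at an unadjusted p under 0.05), against 0%, 0.0177% and 0.0354% of all genes. Both pairs with the parental strain also gave 0 without its first array before heat (limma). MRPL7, the relative of bacterial L5, had the widest spread, with a mean parental heat difference of 0.21 ± 0.32 and one of −0.92 ± 0.32 without LCB4 and LCB5. It read 7.27 and 6.02 on the parental arrays before heat, a gap wider than the strain difference in response, which was −1.14 ± 0.45 (SE, adjusted p = 0.999).

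Over all 7 times, the median member was slightly higher in the LCB4 LCB5 double deletion than in the other strains on the deposited scale. Against the parental strain the median was 0.15, and 0.04 for the median gene. There 4 members were higher and 0 lower (limma, 22 at an unadjusted p under 0.05), against 12.7% of all genes higher and 383 of 5656 lower. Against the DPL1 deletion the median was 0.16, and 0.05 for the median gene. There 4 were higher and 0 lower (limma, 21 at an unadjusted p under 0.05), against 8.75% of all genes higher and 230 of 5656 lower. With the replicate number as a block these counts were 19 and 18. The shares of all genes above come from the fit without the block, so they cannot be set against 19 and 18. Leaving out 1 array gave 2 to 14 in the first comparison and 1 to 11 in the second, and the first count was 2 without the first parental array before heat, with a median of 0.13. The first median was 0.10 without the first parental array at 5 min. After centring on hybridisation controls 0 members were called in either, and the median against the parental strain was 0.03. Of all genes, 104 were then lower and 8 higher in the first comparison, and 74 and 20 in the second. Under median centring the members' medians were 0.085 against the parental strain and 0.097 against the DPL1 deletion.

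RSM22 was called in both comparisons. Its lowest, median and highest values over 14 arrays were 3.73, 4.04 and 4.87 in the parental strain, 3.73, 4.18 and 5.05 in the DPL1 deletion, and 4.21, 4.55 and 5.29 in the double deletion. The strains overlapped, with a mean difference of 0.44 ± 0.09 from the parental strain (SE, adjusted p = 0.00213) and 0.30 ± 0.09 from the DPL1 deletion (SE, adjusted p = 0.0349). The call against the parental strain held in all 28 omissions of 1 array. The call against the DPL1 deletion was lost in 15 of 28 (adjusted p up to 0.081), under median centring (adjusted p = 0.0938) and after cyclic loess (adjusted p = 0.0756).

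MRPS18, the relative of bacterial S11, had parental values of 6.05 to 6.91, values of 4.89 to 6.92 without DPL1, and values of 6.43 to 7.48 without LCB4 and LCB5. The double deletion was higher by 0.43 ± 0.15 than the parental strain (SE, adjusted p = 0.0406) and by 0.54 ± 0.15 than the DPL1 deletion (SE, adjusted p = 0.016), and the ranges overlapped. MRPL24, the relative of bacterial L28, and MRPS16, the relative of S16, were higher than in the parental strain by 0.39 ± 0.11 and 0.40 ± 0.14. MRPL22, whose bacterial relative L22 lines the peptide exit tunnel, and MRPL40, the relative of L24, were higher than in the DPL1 deletion by 0.32 ± 0.10 and 0.36 ± 0.11. Under median centring only 2 members were called in each comparison. The calls of MRPS18 and MRPS16 against the parental strain were lost (adjusted p = 0.0692 and 0.0678), as was that of MRPL22 against the DPL1 deletion (adjusted p = 0.058). After cyclic loess MRPS18 against the parental strain and MRPL22 against the DPL1 deletion were not called (adjusted p = 0.0713 and 0.0834). Omissions of 1 array ended the calls of MRPS18 and MRPS16 against the parental strain in 17 and 18 of 28 cases, and those of MRPL22 and MRPL40 against the DPL1 deletion in 17 and 19. MRPL24, and MRPS18 against the DPL1 deletion, were called in all 28.

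Array quality moved with these differences. The gap between the 3′ and 5′ control probe sets of SRB4, a measure of RNA or labelling integrity, averaged 1.51 for the double deletion, 1.22 for the parental arrays and 0.99 for the DPL1 deletion. It was 0.52 on the 21 arrays of replicate 1 and 1.97 on those of replicate 2, and 37 members were higher in replicate 2 while 0 were lower, against 2204 and 833 of all genes. Within replicate 1 the double deletion exceeded the parental strain by a median of 0.06, and within replicate 2 by 0.25. The same gap averaged 0.97 before heat and 1.29 with heat, while the members' median response was −0.21 in replicate 1 and −0.30 in replicate 2. The corresponding gap for actin differed less between replicates, with 0.61 in replicate 1 and 0.68 in replicate 2. It averaged 0.55 before heat and 0.66 with heat. By strain it was 0.79 for the double deletion, 0.58 for the parental arrays and 0.56 for the DPL1 deletion. The signal of the 25S rRNA probe set moved further. It averaged 9.58 before heat and 11.7 with heat, 13.02 in replicate 1 and 9.82 in replicate 2, and 10.5 for the double deletion, 11.5 for the parental arrays and 12.2 for the DPL1 deletion. The second arrays before heat read 6.77 (parental), 6.07 (DPL1 deletion) and 6.89 (double deletion), against 12.8, 12.3 and 12.7 on the first. These second arrays are also those on which the median member was higher in each strain. The part of RNA integrity and rRNA signal in these results was not tested.

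The DPL1 deletion and the parental strain gave no called difference over all times (limma, 0 members at an unadjusted p under 0.05), with member differences between −0.19 and 0.16 and a median SE of 0.12. Of all genes 0.0177% were called. Before heat alone, 0 members were called in each of the 3 pairs (limma, 1, 4 and 1 members at an unadjusted p under 0.05), against 0.0177%, 0.106% and 0.141% of all genes.

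Other genes of the mitochondrial translation system behaved unevenly. For all lists below, the shares of all genes in the same mean response were 35.4% lower and 30.7% higher. Differences from these shares were not tested. Of 12 mitochondrial ribosomal proteins with other names, 7 fell and 0 rose (limma), with a median of −0.36. Among them were FYV4 at −0.62 ± 0.11, MNP1 at −0.61 ± 0.13 (SE, adjusted p = 0.000205), the relative of the bacterial stalk protein, and IMG1 at −0.51 ± 0.11. VAR1, the mitochondrially encoded member of the small subunit, had a dim signal of 3.68 and a difference of 0.46 ± 0.29 that did not pass (adjusted p = 0.163).

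Of 14 genes for assembly of the mitochondrial ribosome and its attachment to the inner membrane, 9 fell and 1 rose, with a median of −0.49. MRH4, an RNA helicase of large-subunit assembly, fell by 0.89 ± 0.09 (SE, adjusted p = 6.18e-09). RMD9, which binds and stabilises mitochondrial mRNAs, fell by 0.80 ± 0.09, and YLH47, a membrane protein of the Mdm38 family, fell by 0.76 ± 0.09. MTG1, a GTPase of large-subunit assembly, rose by 0.43 ± 0.15 (SE, adjusted p = 0.0139).

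Of 9 mitochondrial translation factors, 3 rose and 1 fell, with a median of 0.26. Their share of rises was near that of all genes. MEF2, an elongation factor G relative that acts in ribosome recycling, rose by 1.01 ± 0.10 (SE, adjusted p = 1.78e-09). AIM23, the initiation factor 3 relative, rose by 0.86 ± 0.19, GUF1, the relative of bacterial LepA, rose by 0.49 ± 0.11, and MRF1, the release factor, fell by 0.36 ± 0.12. MEF2 and AIM23 kept their call after centring on hybridisation controls, and GUF1 lost its own (adjusted p = 0.071). The calls of MRH4, RMD9, YLH47, FYV4, MNP1 and IMG1 were also lost there, with adjusted p between 0.121 and 0.584. Of 14 mitochondrial tRNA synthetases, 4 rose and 2 fell, and of 17 mRNA-specific translational activators 3 rose and 5 fell.

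Of 9 genes of mitochondrial transcription and RNA processing, 2 rose and 3 fell. Nuclear genes for subunits of the respiratory chain and the ATP synthase had 13 of 34 higher and 1 lower, with a median of 0.24. COX5B, the subunit isoform of cytochrome oxidase known from low oxygen, rose by 1.92 ± 0.14, and SDH2 and SDH4 of succinate dehydrogenase rose by 1.28 ± 0.19 and 1.22 ± 0.15. PUF3 itself was dim, at 2.56, with a difference of −0.05 ± 0.14 that did not pass (adjusted p = 0.787). MRP8, the gene left out of the members, rose by 1.70 ± 0.15.

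**Figure D4:**
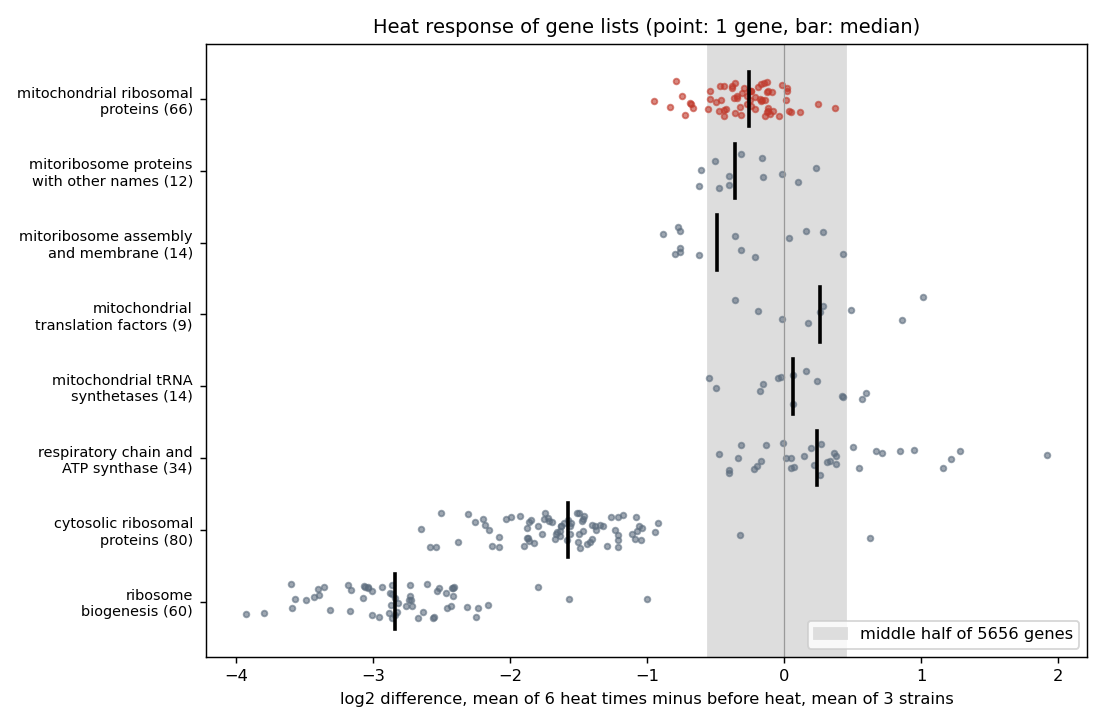
Mean heat response of the 66 members (red) and of 7 other gene lists (grey), with 1 point a gene, a bar at each list's median and the middle of the distribution of all 5656 genes shaded. The members' median was −0.25, against −1.58 for cytosolic ribosomal proteins and −2.84 for ribosome biogenesis on the deposited scale; after centring on hybridisation controls the members' median was −0.01.

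The comparison of lists shows smaller differences for the mitochondrial than for the cytosolic ribosome. Of 80 cytosolic ribosomal protein genes 79 fell and 1 rose, with a median of −1.58, and of 60 ribosome biogenesis genes 59 fell, with a median of −2.84. The member with the lowest value, MRPL20 at −0.95, was above the median of both lists. The cytosolic list reached its lowest median, −2.32, at 20 min and that of ribosome biogenesis, −3.44, at 10 min, against −0.40 at 10 min for the members. The differences between lists were not tested.

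Members, like other genes, can share an upstream region with a gene on the opposite strand. A divergent neighbour means the next gene upstream transcribed away from a given gene in the RefSeq gene table. It was measured for 35 of 66 members and for 2594 of all 5656 genes. Of the 13 members that fell and have one, the neighbour fell for 7, rose for 2 and was not called for 4. Of all 967 genes that fell and have one, the neighbour fell for 444 (45.9%), so the members' share, 53.8%, was near that of all genes. The members themselves spanned a far narrower range than their neighbours.

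**Figure D5:**
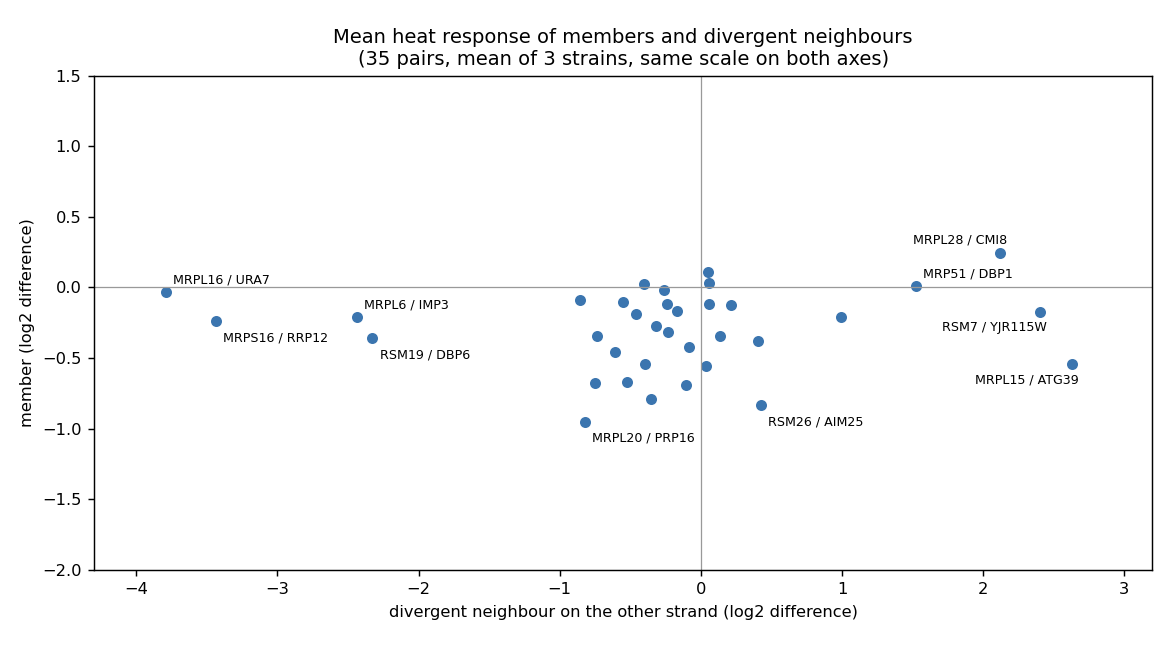
Mean heat response of 35 members (vertical axis) against that of the divergent neighbour (horizontal axis), both as log2 differences averaged over strains and drawn to the same scale, with the outermost pairs named. Neighbours ran from −3.79 for URA7 to 2.63 for ATG39, while the members beside them were at −0.04 and −0.54 on the deposited scale.

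Of the 35 neighbours, 8 differed by 1 or more in either direction, against 26.8% of all genes. No member differed by that much in this mean response, with or without such a neighbour. That the 8 members beside these neighbours did not either therefore cannot show whether members follow a neighbour. MRPL16 was at −0.04 beside URA7, a CTP synthase gene at −3.79. MRPS16 was at −0.24 beside RRP12, a ribosome export factor at −3.43, MRPL6 at −0.21 beside IMP3 of the small-subunit processome at −2.44, and RSM19 at −0.36 beside DBP6, a helicase of ribosome assembly, at −2.33. None of these 4 members was called.

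On the other side, MRPL15 fell by 0.54 beside ATG39, a receptor for autophagy of the nuclear envelope that rose by 2.63. RSM7 was at −0.17 beside YJR115W at 2.40, MRP51 at 0.01 beside DBP1 at 1.52, and MRPL28 rose by 0.25 beside CMI8 at 2.12. MRPL20 fell by 0.95 beside PRP16, a splicing helicase that fell by 0.82. RSM26 fell by 0.84 beside AIM25, which rose by 0.42. The members lie on 14 chromosomes, with 12 on chromosome IV and 10 on chromosome XIV.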

How the data were processed

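The authors deposited 1 table of log2 signals for 42 arrays. The submitters' processing notes name RMA, with no version; the log base is not stated and was inferred from the range, 1.36 to 14.7. Array medians lay between 5.61 and 5.80, and the number of arrays limits the precision. Gene symbols came from the platform annotation: of the probe sets, 6504 have 1 symbol, 328 several and 2443 none. Each of 5656 genes is represented by its brightest probe set.

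With limma 3.58.1 (R 4.3.3), 21 group means were fitted, leaving 21 residual degrees of freedom. P-values are two-sided and adjusted by Benjamini-Hochberg over all genes, with calls under 0.05. The fit was tested on simulated data. The members and lists were chosen with earlier results of these data known. Named with tests were, by smallest p, up to 10 called falls and 6 rises in the mean response, up to 5 and 3 in each strain, up to 5 in each other comparison, and up to 3 genes of each other list; by level, the 3 brightest and 3 dimmest members; and DPL1, LCB4, LCB5, VAR1, MRP8 and PUF3. MRPL3, MRPL13, MRPL44 in the mean response, MRP49, MRP7, MRPL7, MTG1, MRF1, members with complete separation of arrays, and neighbours were added after their values were seen.

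Deviations of arrays with the same replicate number correlated above 0.1 in all 210 pairs of groups over probe sets (lowest 0.130, median 0.524), and in 209 of 210 over tested genes, which meets the rule for treating the numbers as paired. The counts, SEs and p-values given first come from the fit without a replicate block and so leave out this pairing. In the mean response 33 members fell with the block in place of 26. All shares of all genes also come from the fit without the block, and none is given with it. For counts that the block moves by over 1.5 times, the count with it stands beside them or in the closing section. Alternatives were the replicate block, median centring, cyclic loess, centring on 9 hybridisation-control probe sets, leaving out dim genes, mean probe sets, trended robust moderation, array weights and leaving out each array. Background correction was not varied, since only RMA values were used. No coordinates or sequences are given.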

Additional observations from a re-analysis of the deposited data

How the results depend on the processing

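Of the alternatives named in the methods, trended robust moderation and the mean of probe sets kept every count within 1.5 times and every median within the replicate spread of 0.20; MRPL44 lost its call in the DPL1 deletion with mean probe sets (adjusted p = 0.056). Leaving out the dimmest 25% of genes (61 members kept) changed the joint test in the DPL1 deletion from 2 to 1 member and the rise from 15 to 30 min from 1 to 0, since RSM22 is below that filter. Array weights gave 12 in place of 3 in the joint test of the double deletion. Median centring gave 2 rises at 20 min, at 25 min and in the mean response, 1 in the DPL1 deletion, and 2 members in each comparison of the double deletion with another strain. Cyclic loess gave 1 rise at 15 min, 2 at 20 min, 0 in the mean response and 1 in the DPL1 deletion, 21 falls at 30 min, 22 in the parental mean, 6 in the joint tests of the parental strain and the double deletion, and 7 in each comparison of the double deletion with another strain.

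With the replicate block across strains, falls in the parental strain, the DPL1 deletion and the double deletion numbered 19, 14 and 25, joint calls 13, 6 and 9, rises in the DPL1 deletion 2, and strain calls of the double deletion 19 against the parental strain and 18 against the DPL1 deletion; rises at 20 and 30 min, in the mean response and from 15 to 30 min numbered 2. With a replicate block within strains, falls numbered 17 at 5 min and 20, 14 and 25 in the strains, joint calls 13, 8 and 15, strain calls 21 and 20, rises 2 at 20, 25 and 30 min, in the mean response, in the DPL1 deletion and from 15 to 30 min, and 1 in the double deletion. Falls in the mean response numbered 33 and 34. The blocks moved no other count by over 1.5 times.

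Centring on hybridisation controls, which adds those controls' own spread between arrays, left 1 fall at 15 min and 0 calls at each other time. It left 0 calls in the mean response, in each strain, in the joint tests and from 15 to 30 min. It also left 0 in each comparison of the double deletion with another strain. Genes lower and higher numbered 790 and 1260 in the mean response, and 351 and 559 in the parental strain. They numbered 390 and 535 in the DPL1 deletion, and 305 and 407 in the double deletion. Those of the joint tests and from 15 to 30 min are not given. Members' medians then lay at 0.17, 0.16 and 0.31 at 5, 20 and 30 min, at −0.011 in the mean response, and at 0.63 from 15 to 30 min. They were −0.033, 0.056 and −0.13 in the parental, DPL1 and double-deletion means and −0.21 for the DPL1 deletion against the parental strain. Parental medians at 15, 20, 25 and 30 min were −0.67, 0.51, 0.067 and 0.39, those of the DPL1 deletion at 5 and 10 min 0.40 and −0.11, and those of the double deletion at 5, 10, 20 and 30 min 0.17, −0.24, −0.080 and 0.47. The cause of these moves was not tested.

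Leaving out single arrays, or all of 1 replicate number for medians, gave ranges as follows. Falls at 5 min ran from 5 to 14, in the parental mean from 2 to 15, in the DPL1 deletion from 3 to 11 and in the double deletion from 0 to 18. Rises ran from 0 to 1 at 10 min and in the mean response and in the DPL1 deletion, from 0 to 2 at 15 and 25 min, and from 1 to 2 at 20 and 30 min and from 15 to 30 min. Joint calls ran from 1 to 7 in the parental strain, 1 to 4 in the DPL1 deletion and 1 to 7 in the double deletion, and strain calls of the double deletion from 2 to 14 against the parental strain and 1 to 11 against the DPL1 deletion. Parental medians ran from −0.47 to 0.18 at 5 min, −0.60 to −0.25 at 10 min, −0.66 to −0.12 at 15 min, −0.51 to −0.091 at 20 min and −0.38 to 0.011 at 30 min. Medians of the DPL1 deletion ran from −0.34 to 0.023 at 20 min and −0.30 to 0.099 at 30 min. Those of the double deletion ran from −0.61 to −0.12 in the mean, −0.61 to −0.051 at 5 min, −0.68 to −0.25 at 10 min, −0.59 to −0.10 at 15 min, −0.57 to −0.10 at 20 min, −0.64 to −0.12 at 25 min and −0.53 to −0.075 at 30 min. Signals of dim members such as RSM23, MRP35 and RSM22 lie near the floor of the scale, which limits the differences they can show.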
